A study of Mus musculus with 6 samples.

Results

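The AP-1 transcription factor family was examined in microglia of mice with and without overexpression of the transcriptional coactivator PGC-1α, through the 10 genes Fos, Fosb, Fosl1, Fosl2, Jun, Junb, Jund, Atf3, Batf and Maff. Members were found by matching the transcript accession of every non-control array probe to these genes, which gave 14 of the 56605 probes and 10 of the 23462 genes with a probe. Of these, 12 probes for 9 genes were bright enough to be tested, that is, well above background on every array of at least 1 group. The genes were selected on the measured difference in spot intensity between the 2 groups, so the levels and differences of the members are given as a description, with no test.

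AP-1 factors are basic leucine zipper (bZIP) proteins that bind DNA only as pairs. Fos proteins cannot pair with each other and need a Jun partner, whereas Jun proteins can also pair among themselves, and Atf3, Batf and the small Maf protein Maff join related pairs. Fos, Fosb, Jun, Junb and Atf3 are immediate-early genes, transcribed within minutes of a stimulus from factors already present in the cell. In microglia and other brain cells they respond to injury and cytokines, and also to the handling of tissue during isolation of the cells.

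PGC-1αf/f mice carried a loxP-flanked PGC-1α allele together with an eGFP gene and had no Cre. The mPGC-1α mice carried the same allele and, in addition, a Cx3cr1-driven Cre/ERT2 recombinase that tamoxifen activates. The strain name in the methods marks this as a targeted allele of Cx3cr1, so the groups also differed in Cre and at Cx3cr1 itself. Per the study's methods, all mice were male on a C57BL/6 background, the controls were littermates, and experiments followed a course of tamoxifen and a waiting interval. The methods do not state for these arrays whether the controls also received tamoxifen. Cx3cr1 is used by microglia and also by border macrophages and some blood monocytes. The labels give male mice aged 10 weeks, and cells were selected with magnetic beads through the microglial receptor P2RY12. Each group had 3 arrays (replicates 1 to 3), and neither the labels nor the methods say how many animals stand behind an array. In such bulk samples, fewer cells of a type and less RNA per cell cannot be told apart.

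Between 27025 and 30272 of the 59305 spots were well above background on each of the 6 arrays, and the number of arrays limits the precision. Row 1 of the slide held every PGC-1αf/f array and row 2 every mPGC-1α array, so row and group cannot be told apart. PGC-1αf/f replicate 3 stood apart from the rest, with a mean correlation of 0.928 to the other arrays over 22997 probes against 0.962 to 0.972 for the others. In mPGC-1α replicate 3 the mean level of 4 Y-linked genes was -5.88, against -2.03 to -0.74 on the other 5 arrays, although that sample is labelled male. Results are therefore also given without these 2 arrays. Microglial markers were high on all arrays, with a mean level over 13 genes of 3.97 to 4.33. Ppargc1a, which encodes PGC-1α, was 0.80 higher in mPGC-1α on the log2 scale (SE 0.35, limma adjusted p = 0.306), with groups that overlapped. Cx3cr1 was 0.51 lower in value (log2 difference -0.51, SE 0.14, limma adjusted p = 0.194), and the part of the Cre allele in this was not tested. All levels are log2 spot intensity minus the 75th percentile of the array, and all differences are mPGC-1α minus PGC-1αf/f on that log2 scale. A level of 0 is therefore the brightness that 75% of the spots do not exceed, and levels of different probes are not compared.

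Because the members shared a direction of difference, the sequence just before their start sites is shown for Fos, Fosb and Maff, which were 2-fold or more higher, and for Jun, the partner of the Fos proteins. Each line gives the 120 bases before the start in RefSeq (GRCm38.p6), read 5′ to 3′ along the gene, with motif matches in capitals.

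Fos (chr12:85473770-85473889, plus strand): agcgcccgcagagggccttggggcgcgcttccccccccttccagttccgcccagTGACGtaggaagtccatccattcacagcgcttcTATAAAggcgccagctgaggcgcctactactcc
Fosb (chr7:19310046-19310165, minus strand): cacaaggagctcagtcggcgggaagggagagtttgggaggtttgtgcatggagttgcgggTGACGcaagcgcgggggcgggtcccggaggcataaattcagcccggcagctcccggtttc
Jun (chr4:95052223-95052342, minus strand): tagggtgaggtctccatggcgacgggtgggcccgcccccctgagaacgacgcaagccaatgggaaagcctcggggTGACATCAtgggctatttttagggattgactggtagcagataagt
Maff (chr15:79347400-79347519, plus strand): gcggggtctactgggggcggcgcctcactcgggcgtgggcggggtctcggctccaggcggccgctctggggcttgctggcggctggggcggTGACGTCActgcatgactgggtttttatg

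The motifs searched on both strands of the 250 bases before each start were the cyclic AMP response element type TGACNTCA, the AP-1 site TGANTCA, the shorter element TGACG (which is part of TGACNTCA where N is G), the TATA box TATAAA and the CArG box bound by serum response factor. RefSeq windows were found for 9 of the 10 genes, 11 windows in all, and the set of windows used held none for Fosl1. TGACG was held by 7 of the 11 windows, from Fos, Fosb, Junb, Atf3, Batf and Maff, and by 17.8% of the 32851 promoter windows of all genes. In Fos it lay 66 and 129 bases before the start, in Fosb 60, in Junb 106, in Batf 98 and in Atf3 7 bases before it. TGACNTCA was held by 3 windows, from Jun (TGACATCA, 45 bases before the start) and Maff (TGACGTCA at 29 bases, and TGACATCA at 45 bases of another Maff start), and by 7.49% of all windows. TATAAA was found in Fos alone of the members, 33 bases before the start, and in 12.4% of all windows. No member window held TGANTCA or the CArG box, which 6.75% and 1.47% of all windows held. These matches describe letters in short windows and are not evidence of binding.

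Across the family, all 12 tested probes had a higher mean in mPGC-1α microglia, where 49.7% of the 25257 probes with a p-value did. Of the 11 tested probes with a usable value on every array, 5 had groups that did not overlap (Fosb, Fosl2, Jun, Junb and Maff, with 1 probe each), all higher in mPGC-1α. Over all probes, 11.4% were higher in this way. The count was 3 of 11 with normexp background correction. With each array shifted to its median in place of its 75th percentile, 2 of these 5 remained without overlap, Fosb and Maff, and the median of all tested probes moved from 0.00 to -0.14. Differences of 2-fold or more were seen at 3 probes (Fos, Fosb and Maff), against 3.71% of all probes. Maff is in each of these counts, although it was tested only through its mPGC-1α arrays and lay in the background on the control arrays. Its log2 difference was below 2-fold, at 0.88, within slide column 2, which holds replicate 2 of both groups. Since these differences chose the family, nothing is read from the counts.

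**Figure D1:**
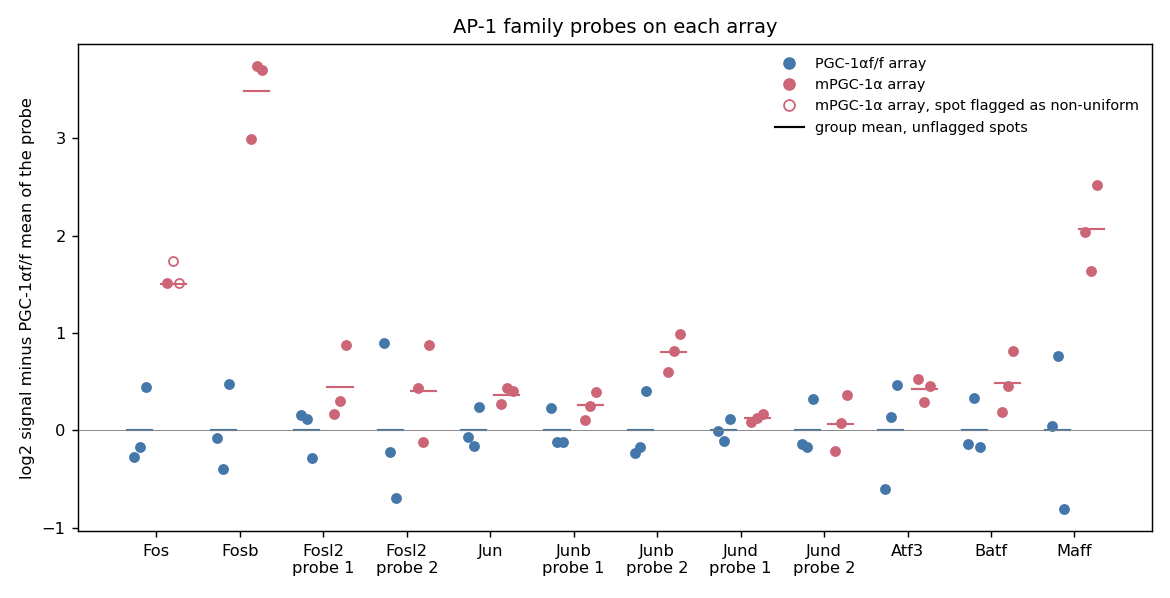
Log2 signal of each tested AP-1 probe on each array, minus that probe's PGC-1αf/f mean (blue PGC-1αf/f, red mPGC-1α, arrays in replicate order from left to right, bars the group means, open circles spots flagged as non-uniform and left out of the means). Fosb, Maff and Fos stand clear of their controls, whereas the Jun subfamily lies within 1 log2 unit of them.

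Among the Fos subfamily, Fosb differed most. Fosb is induced like Fos and also yields the stable short form known as ΔFosB. Its probe (A_55_P2113051) had levels of -2.01, -2.33 and -1.45 in PGC-1αf/f replicates 1 to 3 and 1.06, 1.81 and 1.77 in mPGC-1α replicates 1 to 3. Every mPGC-1α array was above every control array, with a gap of 2.51 between the groups. The mean was -1.93 ± 0.44 (SD, n = 3) against 1.55 ± 0.42 (SD, n = 3), a log2 difference of 3.48 (SE 0.29) or 11.1-fold. In intensity units before scaling, the spot read 250.4, 309.7 and 781.4 in controls and 2654, 5847 and 5000 in mPGC-1α. Leaving out PGC-1αf/f replicate 3 gave 3.72, leaving out mPGC-1α replicate 3 gave 3.36, and leaving out both gave 3.60. A second Fosb probe stayed near background throughout (23.06 to 38.23 intensity units), and no fold is given for it.

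Fos, the founding member and the usual partner of Jun, had levels of 1.33, 1.43 and 2.05 in PGC-1αf/f and of 3.11 in mPGC-1α replicate 1. The Fos spot carried the scanner's non-uniformity flag in mPGC-1α replicates 2 and 3, so the fit dropped these and the mPGC-1α value rests on 1 array. The log2 difference on this basis was 1.50 (SE 0.35), or 2.84-fold. With the flagged spots kept, a choice made after seeing the data, the mPGC-1α levels were 3.11, 3.34 and 3.11. The groups then did not overlap, with 1.60 ± 0.39 against 3.19 ± 0.14 (SD, n = 3 each), a difference of 1.59 (SE 0.21) or 3.00-fold.

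Fosl2, which encodes Fra-2, differed less and its 2 probes gave unequal pictures. The brighter probe read 1.10, 1.06 and 0.66 in controls and 1.11, 1.24 and 1.82 in mPGC-1α. Its groups were apart by no more than 0.01, with a difference of 0.45 (SE 0.23), or 1.36-fold. Without both replicates 3 the difference was 0.10, and within slide column 1 it was 0.01. The other probe read 1.18, 0.06 and -0.41 against 0.72, 0.16 and 1.16, and its groups overlapped (difference 0.40, SE 0.43). Fosl1, which encodes Fra-1, did not rise well above background in either group, with intensities of 25.14 to 26.62 units, so no difference is given for it.

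In the Jun subfamily all 5 probes were above background on every array, with differences from 0.07 to 0.80. Jun, the core AP-1 partner, read 2.79, 2.70 and 3.10 in PGC-1αf/f and 3.13, 3.29 and 3.26 in mPGC-1α. The groups did not overlap, but the gap was 0.03, and the difference was 0.36 (SE 0.15), or 1.28-fold. After quantile normalization, after the median shift, with normexp background correction and in the unscaled deposited table the Jun groups overlapped.

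Junb, a Jun relative that can restrain Jun and is induced together with Fos, was read by 2 probes. The brighter read 3.54, 3.19 and 3.19 in controls and 3.42, 3.56 and 3.70 in mPGC-1α, with overlapping groups and a difference of 0.26 (SE 0.16). The dimmer read -1.35, -1.29 and -0.72 against -0.52, -0.31 and -0.13. Its groups were 0.21 apart and the difference was 0.80 (SE 0.21), or 1.74-fold. Within slide column 1, which holds replicate 1 of both groups, the brighter Junb probe was lower in mPGC-1α by value (log2 difference -0.12), and within column 2 it was higher by 0.38.

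Jund, the Jun member with the steadiest level in most cells, differed least. Its brighter probe read 3.00, 2.90 and 3.13 in PGC-1αf/f and 3.10, 3.14 and 3.18 in mPGC-1α, a difference of 0.13 (SE 0.13) with overlap. The median shift brought this difference to 0.00. The other Jund probe read 2.69, 2.66 and 3.15 against 2.62, 2.91 and 3.19 (difference 0.07, SE 0.21).

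Outside the Fos and Jun subfamilies, Maff had the widest measured difference. Maff is a small Maf protein without an activation domain of its own. Its probe was well above background on all 3 mPGC-1α arrays and on 0 of the 3 control arrays. The measured levels were -4.46, -3.74 and -5.31 in PGC-1αf/f and -2.46, -2.86 and -1.98 in mPGC-1α, without overlap and with a gap of 0.88. Set against the lowest signal that was well above background, the mPGC-1α mean was at least 2.38-fold higher. The measured difference of 2.07 (SE 0.41) is no more than a description, since the control values lie in the background, and it was 1.13 with normexp background correction and 0.88 within slide column 2.

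Atf3, a stress-induced factor that often represses its targets, read -0.77, -0.03 and 0.30 in controls and 0.36, 0.12 and 0.29 in mPGC-1α. The 2 groups overlapped, and the difference of 0.42 (SE 0.27) depended on PGC-1αf/f replicate 1, without which it was 0.12. Without PGC-1αf/f replicate 3 it was 0.66. Batf, which pairs with Jun proteins in immune cells, read -0.03, 0.44 and -0.06 against 0.30, 0.57 and 0.93, also with overlap (difference 0.49, SE 0.22, 1.40-fold). Without both replicates 3 the Batf difference was 0.23.

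Leaving out Maff, which has only a bound, and taking the brighter of 2 probes, the differences ran in the order Fosb, Fos, Batf, Fosl2, Atf3, Jun, Junb and Jund. Fosb and Fos were at 3.48 and 1.50, whereas the next 6 lay between 0.13 and 0.49 with SEs of 0.13 to 0.27, so neighbours among those 6 did not differ beyond their errors. The place of Junb depends on the probe, since its difference averaged over both probes was 0.53. The median over the 9 members was 0.45, beside 0.02 for the 13099 genes tested. It was 0.48 without PGC-1αf/f replicate 3, 0.35 without mPGC-1α replicate 3 and 0.46 without both. It was 0.32 with the median shift.

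**Figure D2:**
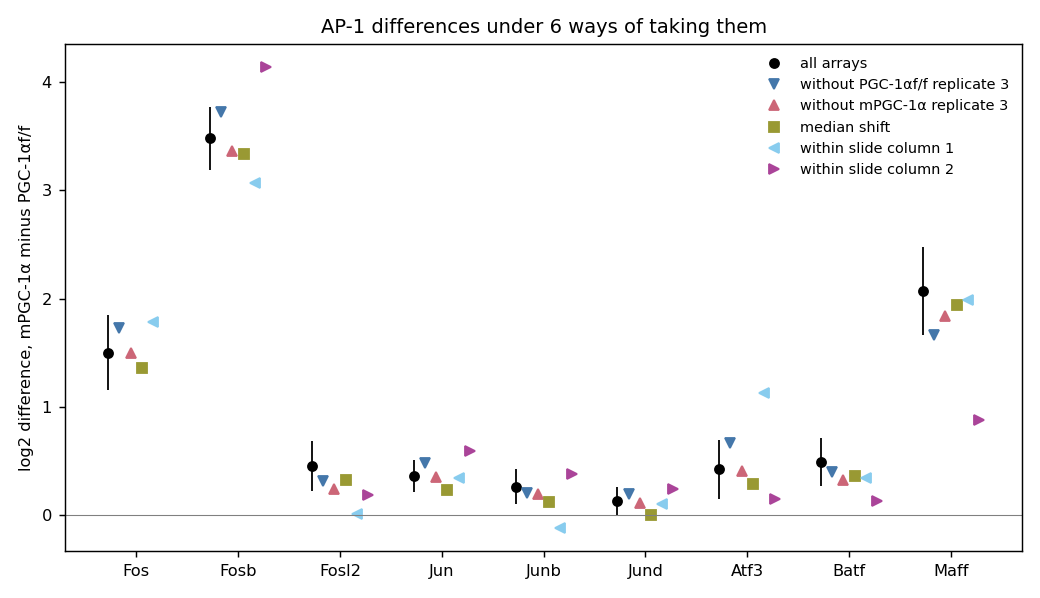
Difference of each AP-1 member (log2, mPGC-1α minus PGC-1αf/f) with all arrays (black, bars 1 SE), without each of the 2 arrays that stood apart, with the median shift and within the 2 slide columns that held an array of each group. Fosb stays between 3.07 and 4.14, whereas Junb runs from -0.12 to 0.38 and Fosl2 from 0.01 to 0.45. Fos has no value within column 2, where its mPGC-1α spot was flagged.

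Array by array, the mean level over the 8 members with a value on every array was 0.39, 0.52 and 0.44 in PGC-1αf/f and 1.25, 1.36 and 1.62 in mPGC-1α. This mean includes Maff, whose control values lie in the background. Over the other 7 members, each centred on its own average, it was -0.47, -0.43 and -0.29 in PGC-1αf/f and 0.22, 0.40 and 0.57 in mPGC-1α. In both means mPGC-1α replicate 3 was the highest array. Markers of other cell types were read on the same arrays. The mean of 19 blood leukocyte markers was 1.59, 2.08 and -1.03 in PGC-1αf/f and 1.91, 2.21 and 2.42 in mPGC-1α. Among these markers 18 of 19 had a higher mean in mPGC-1α, with a median difference of 1.24 that was 0.35 without PGC-1αf/f replicate 3. S100a8 and S100a9, abundant in neutrophils, were well above background on all arrays. All 7 endothelial and mural markers tested, of 12 listed, had a higher mean in mPGC-1α, with a median difference of 0.78, which was 0.06 without PGC-1αf/f replicate 3. The untested marker Pecam1 was lower by measured values (-0.81, without overlap). It was well above background on 2 control and 0 mPGC-1α arrays. All 10 border macrophage markers had a higher mean too, with a median of 0.29, which was 0.07 without mPGC-1α replicate 3. The mean level of the 9 of them valued throughout was 0.82, 0.83 and 0.49 in PGC-1αf/f and 0.76, 1.05 and 1.51 in mPGC-1α, so mPGC-1α replicate 3 was the highest array for these markers, for leukocyte markers and for the AP-1 members. The 12 oligodendrocyte markers had a median of -0.55, which was -0.35 without PGC-1αf/f replicate 3. Of these 12, 9 had a lower mean in mPGC-1α, and 5 were lower and 1 higher with an unadjusted limma p below 0.05. Among those 5, Mog was tested only through its control arrays. The groups did not overlap for 6 lower and 1 higher marker. Medians were 0.27 for 7 neuron, 0.07 for 9 astrocyte and 0.12 for 5 erythroid markers, and without PGC-1αf/f replicate 3 they were -0.01, 0.00 and -0.28. Without mPGC-1α replicate 3 the astrocyte and erythroid medians were 0.16 and -0.15. The 20 microglial markers had a median of -0.12, and 16 of them had a lower mean in mPGC-1α. The part of these cells in the AP-1 differences was not tested. Without PGC-1αf/f replicate 3, the lowest array for leukocyte markers, the Fosb difference was 3.72, Fos 1.73, Jun 0.48, Jund 0.19 and Atf3 0.66. These were all above their values over all arrays, whereas Fosl2 (0.31), Batf (0.40), Junb (0.20) and the measured Maff difference (1.66) were below theirs.

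**Figure D3:**
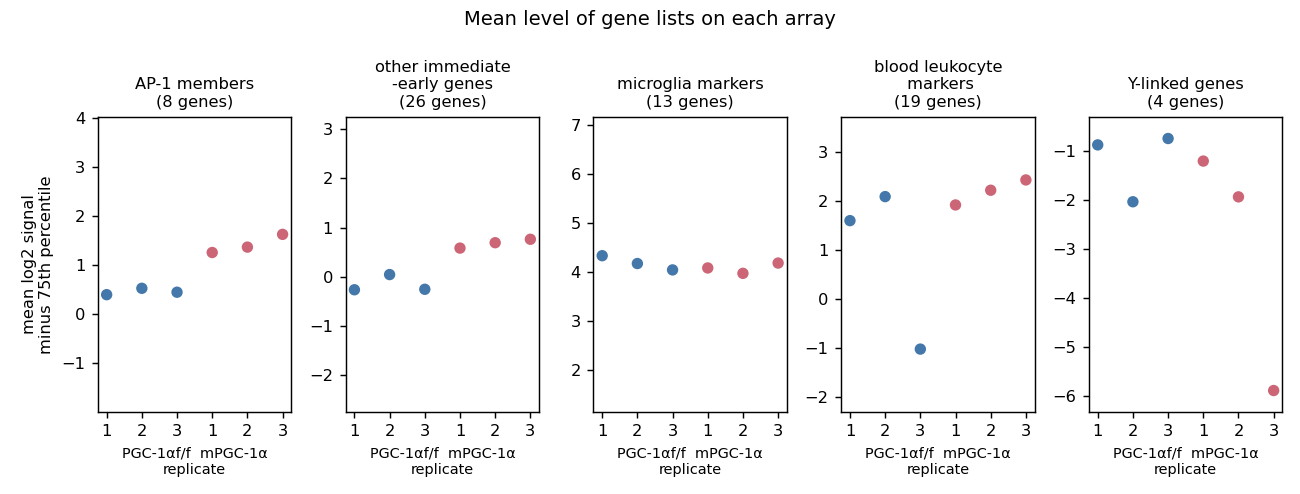
Mean log2 level (signal minus the array's 75th percentile) on each array for the AP-1 members, other immediate-early genes, microglial markers, blood leukocyte markers and Y-linked genes, with replicates 1 to 3 of PGC-1αf/f in blue and of mPGC-1α in red. Each panel spans the same number of log2 units. The AP-1 panel shows genes selected on the group difference and includes Maff, which was in the background in controls. Leukocyte markers are lowest in PGC-1αf/f replicate 3 (-1.03) and Y-linked genes in mPGC-1α replicate 3 (-5.88).

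Genes around the family were read from 4 lists of other bZIP genes, MAP kinase and serum response factor (SRF) pathway genes, genes that AP-1 is known to regulate, and other immediate-early genes. These lists were chosen with earlier results of these data known. Their counts and p-values therefore describe these arrays and are not independent tests. Over all 13099 tested genes, 53.2% had a higher mean in mPGC-1α, 0.0611% were higher and 0.0% lower past a limma adjusted p of 0.05, and 7.92% and 5.83% were higher and lower where the unadjusted p was below 0.05. Groups did not overlap, with the mPGC-1α arrays higher, for 12.2% of the 12302 genes valued on all arrays, and with them lower for 10.8%.

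The MAP kinases and their downstream factor SRF transmit the signals that switch on Fos and Jun. Of 35 symbols listed, 33 had a probe and 30 genes were tested. None of the 30 passed the adjusted threshold in limma, while 1 (Mapk13) was higher and 2 were lower with an unadjusted p below 0.05. Their median difference was -0.08, and 10 of the 30 had a higher mean. Mapk8, which encodes the kinase JNK1 that phosphorylates Jun, read 0.41, 0.20 and 0.36 in controls and -0.11, -0.19 and -0.03 in mPGC-1α (difference -0.44, SE 0.13, adjusted p = 0.209). Map2k6, a kinase that activates p38, differed by -0.55 (SE 0.19, adjusted p = 0.246) and Rps6ka5, the nuclear kinase MSK1, by -0.46 (SE 0.23, adjusted p = 0.36). Rps6ka5 was at -0.27 without PGC-1αf/f replicate 3 and at -0.70 without PGC-1αf/f replicate 1, and Map2k6 at -0.29 without both replicates 3. Mapkapk3, Mapkapk2 and Map3k8 were the highest of those above background on all arrays, at 0.44, 0.33 and 0.31, with adjusted p of 0.305 to 0.44. Map3k8 was at 0.13 without PGC-1αf/f replicate 1 and 0.47 without PGC-1αf/f replicate 2, and Mapkapk3 at 0.25 without both replicates 3. Mapk13, which encodes p38δ and was tested only through its mPGC-1α arrays, being dim on 1 control array, differed by 2.11 (SE 0.88, adjusted p = 0.297) and by 1.03 without PGC-1αf/f replicate 3. Srf itself differed by 0.06 (SE 0.13, adjusted p = 0.837).

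Among other bZIP genes, 34 of 35 were tested, 17 had a higher and 17 a lower mean, and none passed the adjusted threshold, while 4 were higher and 2 were lower with an unadjusted p below 0.05. The median was 0.00. The list also held relatives of the members, among them Atf2 (-0.02), Batf2 (0.08), Batf3 (-0.15), Mafg (0.02), Mafk (-0.04) and Jdp2 (0.75). The members were selected on their differences, so their higher median is not read as a difference between these sets. Bach2, a repressor that competes at sites of the AP-1 type, read 1.55, 1.50 and 1.76 in PGC-1αf/f and 0.97, 0.90 and 0.89 in mPGC-1α (difference -0.68, SE 0.13, adjusted p = 0.119). Hlf and Atf1 were the other 2 lowest at -0.66 and -0.45 (adjusted p of 0.333 and 0.387), and at -0.41 and -0.17 without PGC-1αf/f replicate 3. Nfil3, a repressor in the circadian and immune systems, was at 0.82 (SE 0.27, adjusted p = 0.236). The neutrophil lineage factor Cebpe was at 2.22 and the haematopoietic factor Nfe2 at 2.05, but both were far lower in PGC-1αf/f replicate 3 (-3.71 and -3.43) than on the other 5 arrays, and their adjusted p were 0.373 and 0.378. Without that array they were at 0.74 and 0.64. Jdp2, a Jun-binding repressor, follows Fos and precedes Batf among the protein-coding genes of chromosome 12 in the RefSeq order. It read 0.93, 1.12 and 0.26 in controls and 1.66, 1.48 and 1.41 in mPGC-1α, a difference of 0.75 (SE 0.24, adjusted p = 0.223) beside 1.50 for Fos and 0.49 for Batf. Without PGC-1αf/f replicate 3 these differences were 0.49 for Jdp2, 1.73 for Fos and 0.40 for Batf.

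Of 32 genes known to be regulated by AP-1, 24 were tested and 17 had a higher mean, with a median of 0.53. None passed the adjusted threshold in limma, while 8 were higher and 1 was lower with an unadjusted p below 0.05. Mmp9, Nos2 and Timp1 were tested only through their brighter mPGC-1α arrays, and of the 21 genes above background on every array, 14 had a higher mean, 6 were higher and 1 was lower at that p, and the median was 0.38. Without both replicates 3 the median was 0.27. The mean level of the 22 genes valued throughout was 0.00, 0.39 and -0.40 in controls and 0.65, 0.67 and 1.01 in mPGC-1α, lowest in PGC-1αf/f replicate 3, where leukocyte markers were lowest too, and the part of those cells was not tested. Spp1, the secreted protein osteopontin, read -0.77, -0.77 and -1.43 in PGC-1αf/f and 0.44, 1.31 and 1.50 in mPGC-1α (difference 2.07, SE 0.32, adjusted p = 0.0903). It passed in 3 of 18 alternatives, with adjusted p of 0.0494 (random slide column block), 0.0172 (array weights) and 0.000249 (unscaled table). Its adjusted p was up to 0.329 in the others. Il1b, the inflammatory cytokine interleukin-1β, was at 2.04 (SE 0.57, adjusted p = 0.194). Cd44, a hyaluronan receptor also abundant on leukocytes, was at 1.58 (SE 0.70, adjusted p = 0.315) with a level of -3.07 in PGC-1αf/f replicate 3, and at 0.71 without that array. Without both replicates 3, Il1b was at 1.24. At the other end, Tgfb1 was at -0.44, Mmp14 at -0.28 and Bcl2l11 at -0.28, with adjusted p of 0.229, 0.492 and 0.376. Mmp14 was at -0.16 without PGC-1αf/f replicate 2 and -0.13 without mPGC-1α replicate 3, and Bcl2l11 at -0.18 without mPGC-1α replicate 1.

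Of 38 symbols listed as other immediate-early genes, 36 had a probe and 32 were tested, of which 29 had a higher mean and the median was 0.65. Whether each listed gene responds to the same signals as Fos was not tested. Dusp1, a phosphatase that switches off MAP kinases, was the 1 gene that rose past the threshold, by 2.24 (SE 0.16, limma adjusted p = 0.0122). It read 0.60, 0.89 and 0.82 in controls and 2.80, 3.02 and 3.20 in mPGC-1α. It passed in 13 of 18 alternatives, with adjusted p of 4.84e-05 to 0.125, and did not pass without PGC-1αf/f replicate 2 (0.076), mPGC-1α replicate 2 (0.125), mPGC-1α replicate 3 (0.0827) or both replicates 3 (0.0694), nor with the replicate number as a block (0.0807). Gadd45b, a stress-response gene, was at 2.30 (SE 0.64, adjusted p = 0.194) and at 1.22 without both replicates 3. Ier3 was at 1.64 (SE 0.23, adjusted p = 0.0728). It passed in 3 of 18 alternatives, with adjusted p of 0.0434 (random slide column block), 0.0244 (array weights) and 0.0129 (unscaled table). Its adjusted p was up to 0.235 in the others. The lowest were Klf6 at -0.14, Btg1 at -0.09 and Trib1 at -0.01, with adjusted p of 0.703, 0.751 and 0.976. Klf6 and Trib1 changed sign without PGC-1αf/f replicate 3, to 0.03 and 0.12. With an unadjusted p below 0.05, 18 genes of this list were higher and 0 lower, and the groups did not overlap for 16 of the 26 valued on all arrays. Hspa1a, Hspa1b and Ccn1 were tested only through their brighter mPGC-1α arrays, and of the 29 genes above background on every array, 26 had a higher mean, 15 were higher and 0 lower at that p, and the median was 0.52. The mean level of the 26 genes was -0.27, 0.04 and -0.26 in controls and 0.58, 0.69 and 0.76 in mPGC-1α. It was highest in mPGC-1α replicate 3, as were leukocyte and border macrophage markers, whose part was not tested.

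**Figure D4:**
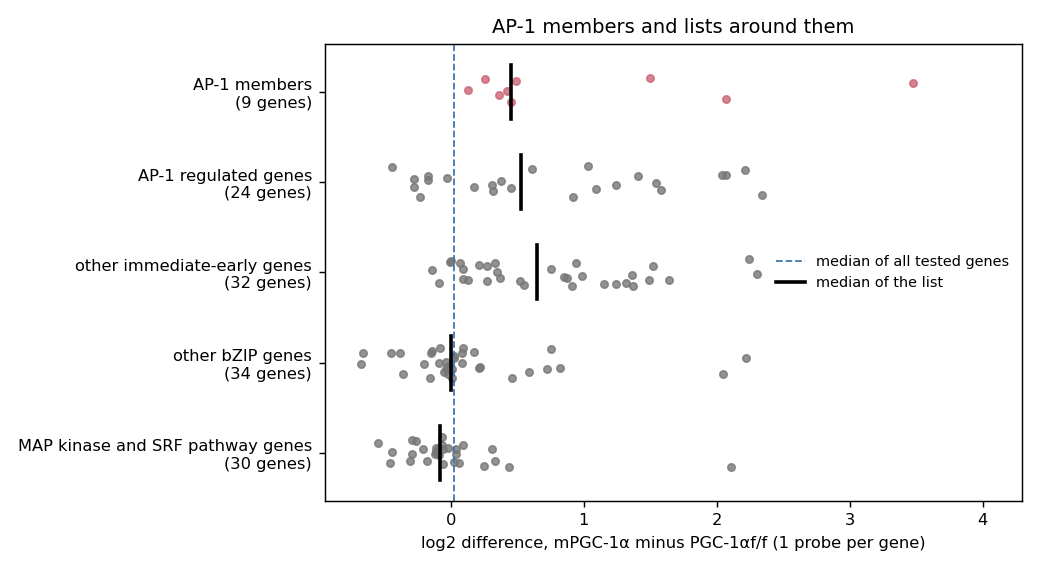
Differences (log2, mPGC-1α minus PGC-1αf/f, 1 probe per gene) of the AP-1 members and of 4 lists around them, with each list's median as a black bar and the median of all tested genes (0.02) as a dashed line. AP-1 members, AP-1 regulated genes and other immediate-early genes have medians of 0.45 to 0.65, whereas other bZIP and MAP kinase and SRF pathway genes have medians of 0.00 and -0.08. The AP-1 members were selected on this difference, and the lists were chosen with earlier results known.

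The genes outside the family most like it across the 6 arrays were sought among 11558 genes by Pearson correlation with the mean of 7 members, each centred on its own average. The closest were Utrn (r = 0.997), Mecr (0.988), Ecsit (0.987), Aen (0.987) and Pvt1 (0.984), whose own differences were 0.28, 0.50, 0.28, 0.71 and 1.15. By deviations from the group means, which leave out the group difference, the closest were Gm32914 (r = 0.999), Rrbp1 (0.998), Tmem179b (0.998), Naa40 (0.997) and Synj2bp (0.997), with differences from -0.02 to 0.14. None of the genes was on both lists. With 6 arrays in 2 groups and many genes compared, such values are a description of these arrays.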

How the data were processed

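Gene expression was measured on 1-colour Agilent mouse arrays with Cy5-labelled material from P2RY12-selected microglia. The deposited scanner files, made by the authors with Feature Extraction 11.5.1.1, give a background-subtracted, spatially detrended intensity per spot with flags for spots above background and outlier spots. The deposited series table holds the same intensity values (ratio to the scanner files 0.995 to 1.005), not normalized between arrays. GeneSpring was used for normalization in the study, whose methods state no gene-wise test. From each log2 intensity the 75th percentile of the array's non-control spots was subtracted, outlier spots were left out, and spots of a probe were averaged. A probe counted as above background where at least 0.5 of its spots were. Probes above background on every array of either group were tested with limma 3.58.1 in R 4.3.3 (lmFit and eBayes, two-sided), adjusted by Benjamini-Hochberg over all of them, with the package data.table (version 1.17.8) for input, and figures were made with Python 3.11.15, pandas 2.3.3, numpy 2.4.6 and matplotlib 3.10.9. The fit was tested on simulated data. Where a gene had several probes, the tested probe with values on all arrays and the highest mean signal stood for it. RefSeq accessions (GRCm38.p6) gave 33767 probes 1 gene symbol each.

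The AP-1 members and all gene lists were chosen with earlier results of these data known. The genes named were all members, Ppargc1a, Cx3cr1 and, from each list, genes past an adjusted p of 0.05 and the 3 highest and 3 lowest of those above background on all arrays, and the 5 genes most like the family by each of 2 measures. Jdp2, Srf, Mapk13, Atf2, Batf2, Batf3, Mafg, Mafk and the cell type markers named singly were outside this rule and chosen after their values were seen. Mmp9, Nos2, Timp1, Hspa1a, Hspa1b and Ccn1 were also outside it and were named because they were tested only through their mPGC-1α arrays. Labels do not say that replicates are separate animals, so p-values measure only the spread between these samples.

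Alternatives were quantile normalization, a shift to the median, the deposited table unscaled, normexp (offset 50) with quantile normalization, no filter or a stricter filter on dim probes, the replicate number as a block, the slide column as a random block, array weights, the mean over a gene's probes, and leaving out each array or both replicates 3. Keeping outlier spots and differences within each slide column were added after seeing the data.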

Additional observations from a re-analysis of the deposited data

How the results depend on the processing

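The Fosb, Fos, Jun, Fosl2, Atf3, Batf and Maff differences kept their sign under every alternative that gave a value (Fosb 3.07 to 4.14, Fos 1.28 to 1.78, Jun 0.23 to 0.59, Fosl2 0.01 to 0.59, Atf3 0.12 to 1.13, Batf 0.13 to 0.65, Maff 0.88 to 2.45). Jund ran from 0.00 to 0.24 and Junb from -0.12 to 0.53. The member median was 0.31 with array weights and 0.31 within slide column 2. Probes without overlap numbered 2 with the median shift, 2 in the unscaled table, 3 with normexp and 5 to 8 on leaving out each array (which cannot lower the count), the 8 being without mPGC-1α replicate 1. With the median shift the medians were -0.15 for other bZIP and -0.21 for MAP kinase and SRF genes. MAP kinase and SRF genes had -0.03 and AP-1 regulated genes 0.27 within slide column 2, and AP-1 regulated genes also 0.27 without both replicates 3 and up to 0.63 without mPGC-1α replicate 2. Past the threshold, the unscaled table gave 2 other bZIP, 1 MAP kinase and SRF, 6 AP-1 regulated and 5 immediate-early genes, the random slide column block 1 AP-1 regulated and 6 immediate-early genes, array weights 2 bZIP, 1 AP-1 regulated and 10 immediate-early genes, and the mean over probes 1 bZIP gene. Immediate-early genes past it numbered 0 to 2 on leaving out each array, 0 without both replicates 3, and their median was 0.47 with array weights, 0.56 without both replicates 3 and 0.59 to 0.84 on leaving out each array, the 0.84 being without PGC-1αf/f replicate 2. Over all probes, the number past the threshold was 20, and 456 in the unscaled table, 138 with the random slide column block, 1100 with array weights, 11 with quantile normalization, the median shift or normexp, 9 without a filter on dim probes, 4 with the stricter filter, 3 without both replicates 3 and 0 to 25 on leaving out each array.

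Signs turned for Trib1 with the slide column block (0.03), array weights (0.00), without PGC-1αf/f replicates 2 (0.03) and 3 (0.12), mPGC-1α replicates 1 (0.06) and 3 (0.01) and both replicates 3 (0.15), though not without the other 2 arrays (lowest -0.19), for Klf6 with array weights (0.03), without PGC-1αf/f replicate 3 (0.03) and both replicates 3 (0.06), though not without the other 5 arrays (lowest -0.25), and for Bcl2l11 (0.01) and Btg1 (0.21) with the mean over probes. The cause of these changes was not tested.

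Deviations of same-numbered arrays from their group means correlated by 0.139, 0.127 and 0.0187 over 22997 probes, so replicate numbers were not read as pairs. With the replicate block, 0 probes and 0 immediate-early genes passed the threshold, the Dusp1 difference was 2.24 (limma adjusted p = 0.0807) and the member differences of fully valued probes cannot change by construction.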
